A study of Mus musculus with 16 samples.

Results

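Dexamethasone was compared with vehicle in the lung of newborn mice, across 18193 genes. The comparison rests on 8 of the 16 arrays of the series, chosen by their titles: 4 of whole lung given dexamethasone and 4 of whole lung given vehicle. All mice were C57BL/6J, an inbred laboratory strain, and the organs were taken at postnatal day 7. The other 8 arrays are of whole cerebellum under the same treatments. The series' title calls the treatment chronic. The sources used here do not give its dose, route and schedule, the make-up of the vehicle, or the sex and litter of the mice. The treated arrays are numbered B28, B31, B40 and B46 and the vehicle arrays B12, B14, B19 and B22, and values per array are printed in that order. They are on the log2 scale, where a difference of 1 is a 2-fold change in signal, and each gene is read by a single probe set.

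Dexamethasone is a synthetic glucocorticoid. It binds the glucocorticoid receptor, which then acts in the nucleus to raise the transcription of some genes and lower that of others. Glucocorticoids mature the lung before birth: the alveolar walls thin, type 2 cells make more surfactant and the epithelium takes up more fluid. In newborn rodents the alveoli are still forming. Septa grow out from the airspace walls, myofibroblasts at their tips lay down elastin, and fibroblasts and endothelial cells divide. Glucocorticoid given in this period is known to hold back septation.

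The 8 arrays carried the lung label. Sftpc, the surfactant protein of alveolar type 2 cells, lay at 14.57 to 14.74 in the lungs and at 5.03 to 6.03 in the cerebella. The airway club cell protein Scgb1a1 lay at 14.26 to 14.58 against 4.19 to 4.76, and the cerebellar granule neuron factor Zic1 at 3.69 to 4.80 against 13.02 to 13.41. Arrays of a group correlated at 0.979 to 0.994 and arrays of different lung groups at 0.950 to 0.977, and no pair was identical. Along the first principal component of the lungs (66.5% of the variance) the treated and vehicle arrays lay on opposite sides. Array B46 lay apart on the second, at -34.6, and had the lowest array weight, at 0.295. Gapdh control probes at both ends of the transcript read RNA integrity, and their 3′ minus 5′ difference was 0.446 to 0.708 in the treated and 0.840 to 1.04 in the vehicle lungs. These ranges do not overlap, so RNA integrity as read by Gapdh and treatment cannot be told apart. Xist, which female cells transcribe, was high (10.8 to 11.9) in 3 of the 4 treated and 1 of the 4 vehicle lungs and 5.53 to 6.93 in the others. The labels call the arrays biological replicates but name no litter, and they give all arrays the same hybridization date.

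Genes of cell division, of the septal matrix and of antigen presentation fell with dexamethasone. Genes of epithelial fluid transport, of the handling of foreign compounds and of neutrophils rose. At an adjusted p under 0.05 in limma, a linear model with a moderated variance, 4981 of 18193 genes were called, 27.4% of them, with 2473 higher in the treated lungs (13.6%) and 2508 lower (13.8%). At least a 2-fold change was seen in 556 of the higher (3.06%) and 652 of the lower genes (3.58%), and at least a 4-fold change in 108 and 136. The median log2 change over all genes was 0.05. Below, a gene said to rise or fall passed the threshold, a list's counts are of such genes, and a log2 change is given ± its standard error. The treated and vehicle arrays did not overlap for 5570 genes (30.6%), 2752 higher and 2818 lower. Calls were rare among dim genes, at 4.65% of the 4429 genes with a lung mean under 5, and ran from 32.9% to 39.5% in each band of level from 6 upward. The share called ran from 21.5% on chromosome 13 to 30.3% on chromosome 3, and was 27.1% on the X chromosome.

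**Figure D1:**
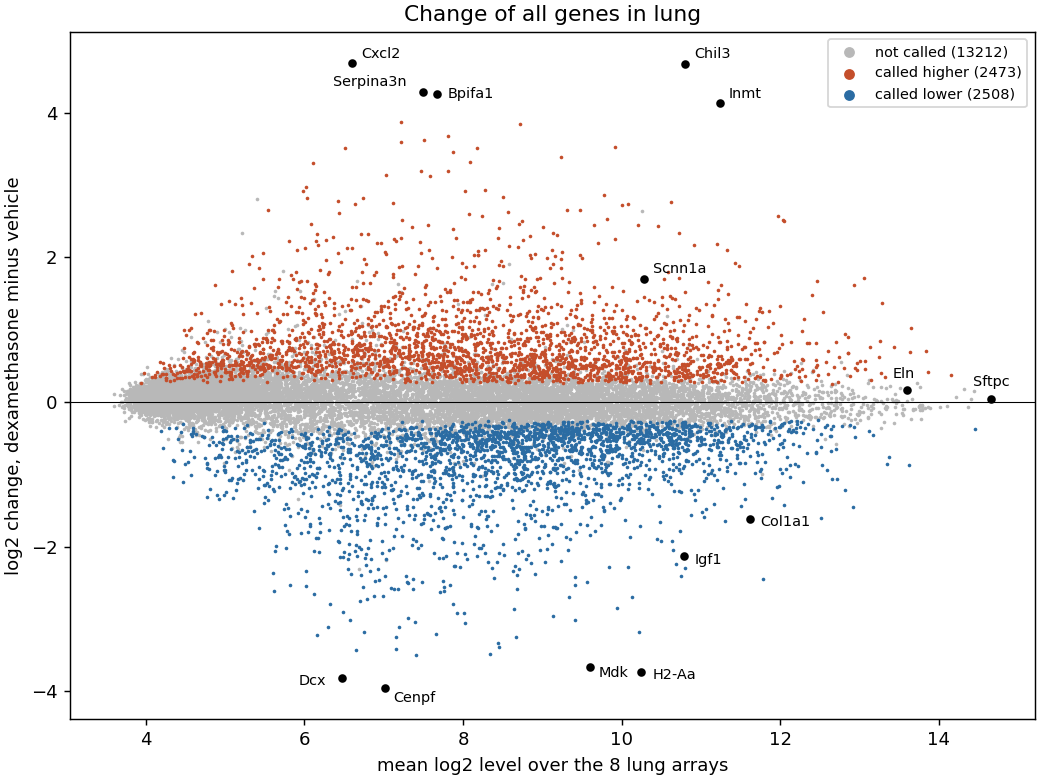
Change of each of the 18193 genes in lung. The horizontal axis is the gene's mean log2 level over the 8 lung arrays, and the vertical axis is its log2 change, dexamethasone minus vehicle. Genes called higher (2473) and lower (2508) by limma are coloured, and named genes are labelled. The cloud is centred near 0 and has called genes at all levels above the floor, with Cxcl2 and Chil3 at the top and Cenpf at the bottom.

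With the Gapdh 3′ minus 5′ signal as a covariate, 9 genes were called higher and 23 lower, and the median standard error was 0.332 in place of 0.127. The fitted direction was the same for 96.9% of the 4981 called genes. In 8 fits that each left out a lung array, 3470 of the called genes (69.7%) were called every time. Among the 2887 called genes with more than 1 probe set, 1393 had a further probe set called the same way. In 41 of the 2887 a probe set was called the opposite way.

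The mitosis list had the lowest median of the 60 gene lists. Of its 27 genes, 25 fell and 0 rose, beside 13.8% of all genes that fell, and the median log2 change was -2.39, beside 0.05 over all genes. Cenpf, a kinetochore protein, read 4.99, 4.97, 5.06 and 5.12 in the treated lungs and 8.93, 8.74, 9.47 and 8.79 in the vehicle lungs. The nearest treated and vehicle arrays stood 3.62 apart, and the gene fell 15.4-fold (log2 change -3.95 ± 0.15, limma adjusted p = 1.01e-06). In whole lung, fewer dividing cells and less of this RNA in each cannot be told apart. Top2a, the topoisomerase that untangles DNA before chromosomes part, read 7.90, 7.72, 7.78 and 7.19 in the treated and 10.71, 10.33, 10.74 and 10.66 in the vehicle lungs. Its lowest value was in B46, and the groups did not overlap (log2 change -2.96 ± 0.16, limma adjusted p = 5.01e-06).

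The other mitotic genes spanned the steps of division. Bub1 and Ttk, kinases of the spindle checkpoint, fell 8.66-fold and 8.61-fold. Kif20a, a motor of the central spindle, fell 7.47-fold, and Prc1, which bundles that spindle's microtubules, 7.59-fold. Aspm, which organises spindle poles, fell 10.6-fold, and Cep55, which acts as daughter cells separate, 11.3-fold. Racgap1, which helps place the cleavage furrow, fell 8.23-fold. Spc25 of the kinetochore fell 8.33-fold, Cdca8 of the chromosomal passenger complex 9.25-fold, and the mitotic genes Cdca2 and Pbk 9.46-fold and 9.51-fold. Mki67, the common marker of cycling cells, fell 3.77-fold, with vehicle values of 11.22 to 11.57 and treated values of 8.75 to 10.02. The genes of the list that missed the threshold were Nusap1, at -0.85 ± 0.56 (limma adjusted p = 0.303), and Ube2c, at -0.73 ± 0.34 (limma adjusted p = 0.143). Ube2c was called without B31 (limma adjusted p = 0.0453).

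Short sequence elements, which the choice of the lists did not use, were counted before the start sites. RefSeq start sites in build GRCm38.p6 were found for 14452 of the 18193 genes and 23 of the 27 mitotic genes, and the 250 bases before each start were searched on both strands. The box CCAAT was present for 17 of the 23 mitotic genes (73.9%), 61.1% of the DNA replication windows and 85.7% of the windows of MHC class II genes, which present antigen, beside 39.4% of all genes with a window. The element TTTGAA or TTCGAA, known as the cell cycle homology region, was present for 11 of 23 (47.8%), beside 15.7%. It was present for 22.2% of the DNA replication windows and 0 of the 7 class II windows. The list of genes known to be induced by glucocorticoid, described below, had it in 5 of 21 windows (23.8%) and CCAAT in 42.9%. Over all called genes these shares lay near the background: CCAAT was present for 38.4% of the higher, 41.9% of the lower and 39.1% of the uncalled genes, and the second element for 13.6%, 16.1% and 16%. A match is only a run of letters, and whether it is bound in lung was not measured. The windows of the activator Cdc20, the kinase Cdk1 and Top2a are shown because each holds CCAAT and the cell cycle element, in capitals. They were picked after their values and sequences were seen.
Cdc20, chr4:118437344-118437593, minus strand: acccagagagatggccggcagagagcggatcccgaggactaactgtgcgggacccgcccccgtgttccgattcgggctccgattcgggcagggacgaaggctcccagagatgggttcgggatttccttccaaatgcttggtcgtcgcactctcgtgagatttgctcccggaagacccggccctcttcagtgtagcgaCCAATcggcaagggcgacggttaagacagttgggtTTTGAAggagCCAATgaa
Cdk1, chr10:69352913-69353162, minus strand: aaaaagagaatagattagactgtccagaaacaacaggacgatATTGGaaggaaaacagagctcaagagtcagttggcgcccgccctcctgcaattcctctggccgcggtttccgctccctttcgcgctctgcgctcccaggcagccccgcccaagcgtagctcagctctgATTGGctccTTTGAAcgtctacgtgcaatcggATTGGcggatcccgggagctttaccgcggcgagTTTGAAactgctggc
Top2a, chr11:99024190-99024439, minus strand: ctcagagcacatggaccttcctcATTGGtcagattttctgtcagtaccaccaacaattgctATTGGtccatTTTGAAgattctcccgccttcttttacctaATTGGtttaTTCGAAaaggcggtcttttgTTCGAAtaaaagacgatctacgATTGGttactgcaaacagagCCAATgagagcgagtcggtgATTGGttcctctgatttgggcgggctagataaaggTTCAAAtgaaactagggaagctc

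The Cdc20 window holds 2 CCAAT boxes and 1 cell cycle element, the Cdk1 window 3 and 2, and the Top2a window 6 and 4. Cdc20, which activates the complex that ends mitosis, read 8.33, 8.58, 8.43 and 7.94 in the treated and 10.77, 10.55, 11.09 and 10.84 in the vehicle lungs, without overlap (log2 change -2.49 ± 0.16, limma adjusted p = 7.78e-06). Cdk1, the kinase that starts mitosis, read 7.61, 7.59, 7.65 and 7.08 against 9.94, 9.67, 10.04 and 9.84, also without overlap (log2 change -2.39 ± 0.14, limma adjusted p = 6.87e-06).

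DNA replication genes fell as well. Of 22, 21 fell and 0 rose, with a median of -1.20. Rrm2, the ribonucleotide reductase subunit made in S phase, read 8.15, 8.59, 8.56 and 7.27 against 10.74, 10.35, 10.94 and 10.66 and fell 5.78-fold, with B46 lowest. Cdc6, which loads the replicative helicase, fell 4.23-fold, the cyclin Ccne2 3.96-fold and the chromatin assembly subunit Chaf1b 2.75-fold. The helicase subunits Mcm2 and Mcm7 fell 2.17-fold and 2.2-fold, with treated values of Mcm7 at 10.01 to 10.08 and vehicle values at 11.08 to 11.37. Only Ccne1 missed the threshold (-0.52 ± 0.27, limma adjusted p = 0.182), and it was called without B31 (limma adjusted p = 0.0112).

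Regulators of entry into S phase moved in both directions. Of 18 genes of this list 3 rose and 7 fell, with a median of -0.06. Cdkn2c, an inhibitor of the cyclin D kinases, read 8.07, 8.28, 8.05 and 7.54 in the treated and 10.59, 10.72, 10.92 and 10.52 in the vehicle lungs and fell 6.5-fold (limma adjusted p = 6.67e-06). Its relative Cdkn2b read 11.37, 11.03, 11.62 and 11.50 against 10.07, 10.06, 9.91 and 10.19 and rose 2.5-fold (limma adjusted p = 9.58e-05). The groups stood 2.25 apart for Cdkn2c and 0.84 for Cdkn2b, in opposite directions. Cdkn1a, an inhibitor that blocks the cyclin kinases more widely, rose 2.63-fold, with treated values of 10.45 to 11.88, highest in B46, and vehicle values of 9.29 to 9.72. Cdkn1c, which is known as a glucocorticoid target in other cells, had a log2 change of 0.04 ± 0.13 with overlapping arrays (limma adjusted p = 0.835). The cyclin D kinases Cdk6 and Cdk4 fell 2.13-fold and 1.59-fold, and E2f1, which drives S phase genes, 2.19-fold. E2f2 was the third gene that rose, at 0.89 ± 0.23, and it lost its call without B22 (limma adjusted p = 0.0518). Among 13 genes of the Bcl2 family, which set the threshold for cell death, 6 rose (4 without B12, B14, B22, B40 or B46) and 2 fell (1 without any array except B46). The protectors Bcl2l1 and Mcl1 rose 1.69-fold and 1.34-fold, the promoters of death Bid and Bbc3 1.6-fold and 1.42-fold, and the protector Bcl2 fell 1.43-fold, with all 5 of its probe sets called lower.

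**Figure D2:**
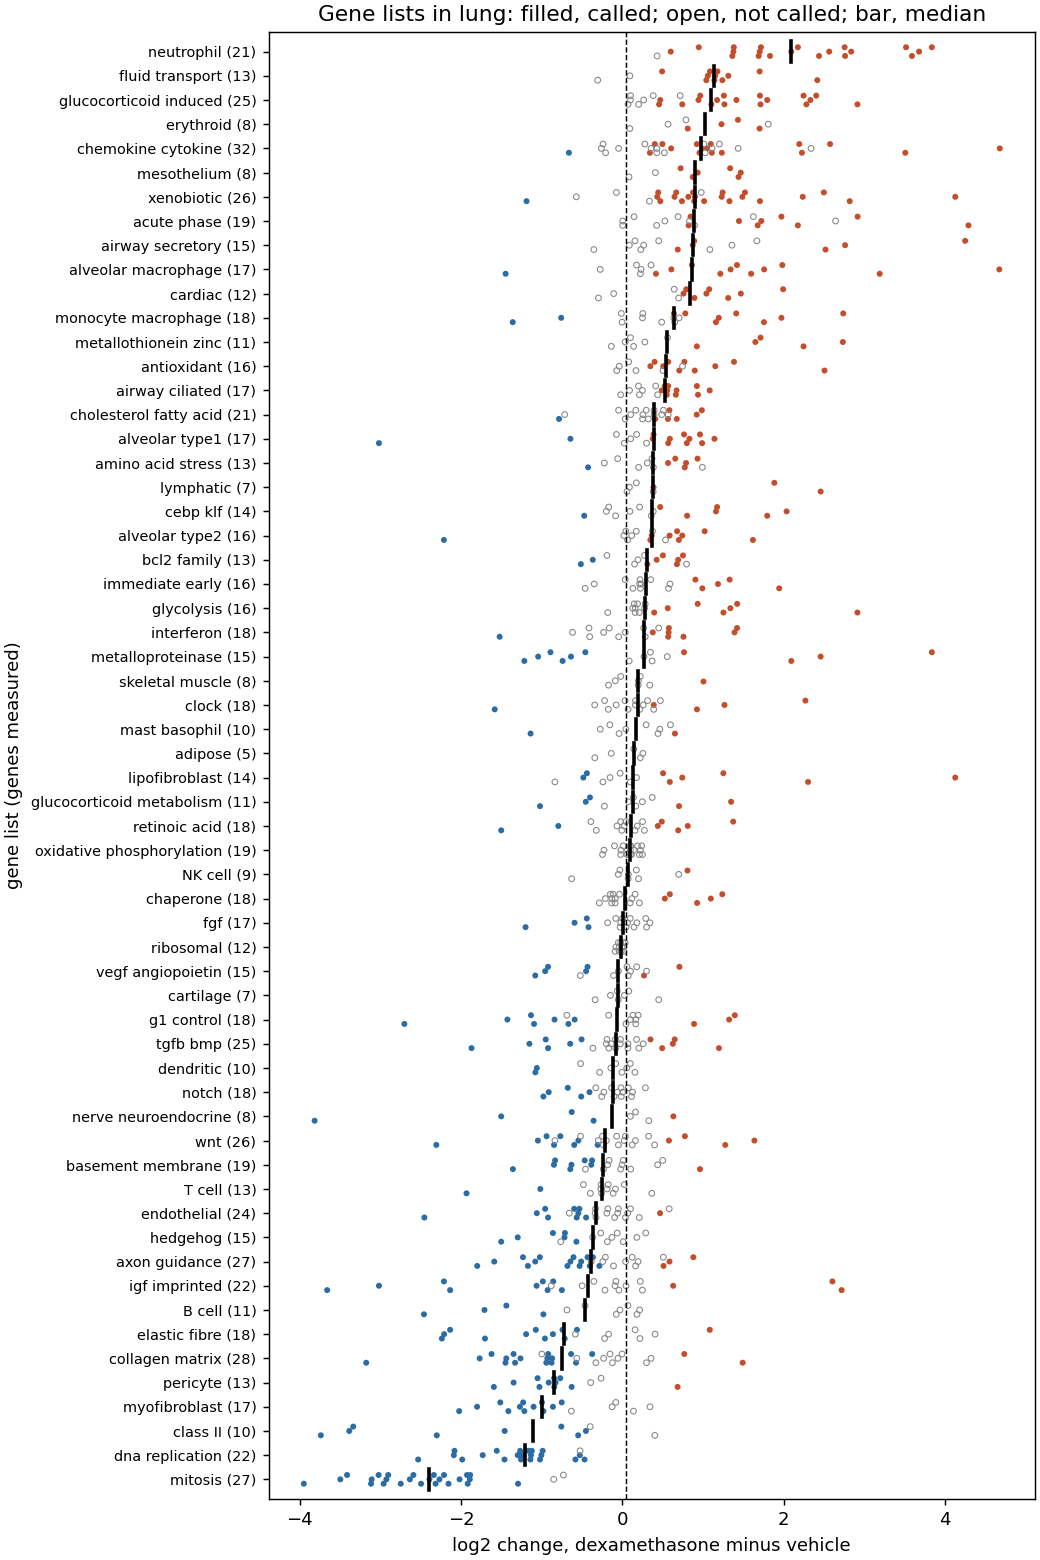
Log2 change, dexamethasone minus vehicle, of the measured members of the 60 gene lists, ordered by median. Each point is a gene, filled where limma called it and open where it did not, and the bar is the list's median. The dashed line is the median of all genes, 0.05. Mitosis, DNA replication and class II antigen presentation lie lowest, and the neutrophil list lies highest.

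The fibrous matrix was lower in the treated lungs. Of 28 genes of collagens, their processing and matricellular proteins, 16 fell and 2 rose, with a median of -0.75 (-0.49 without B46). Col1a1, a chain of the main fibrillar collagen, read 11.09, 10.96, 10.85 and 10.30 in the treated and 12.38, 12.63, 12.09 and 12.59 in the vehicle lungs. The groups did not overlap and B46 was lowest (log2 change -1.62 ± 0.18, limma adjusted p = 0.000188). Its partner chain Col1a2 fell 2.73-fold, and the chains Col5a1 and Col5a2, which help set fibril width, 2.4-fold and 1.9-fold. Tnc, a matrix protein of growing septa, read 9.08, 9.49, 8.72 and 7.24 against 11.84, 11.83, 11.71 and 11.85 and fell 9.03-fold. The vehicle values of Tnc spanned 0.15 and the treated ones 2.25. The prolyl hydroxylase genes, whose enzymes ready collagen chains for folding, split. P4ha3 fell 3.41-fold, P4ha2 rose 2.81-fold and P4ha1 1.7-fold. These were the only 2 genes of the list that rose.

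Most elastic fibre genes fell, but the elastin gene was not called. Of 18 genes 11 fell and 1 rose (2 without B46), with a median of -0.73. Eln, elastin itself, read 13.73, 13.67, 13.71 and 13.61 in the treated and 13.42, 13.63, 13.45 and 13.58 in the vehicle lungs, with overlap (log2 change 0.16 ± 0.09, limma adjusted p = 0.227). Fbn2, the microfibril protein of developing tissue, read 7.01, 6.83, 6.56 and 6.46 against 8.77, 8.82, 8.67 and 9.14 and fell 4.39-fold (limma adjusted p = 1.31e-05). Ltbp2, Fbln2 and Fbln1, which bind elastic fibres or microfibrils, fell 4.71-fold, 4.62-fold and 3.25-fold. The microfibril protein Mfap2 fell 1.94-fold and Ltbp3, which holds latent TGF-beta, 2.1-fold. Lox, the oxidase that cross-links elastin and collagen, was the only member that rose (2.12-fold, limma adjusted p = 0.000828).

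Genes of the contractile cells of septa and vessels fell. Of 17 myofibroblast and smooth muscle genes 12 fell and 0 rose (median -0.996). Acta2, smooth muscle actin, read 12.69, 12.10, 12.29 and 11.78 in the treated and 13.29, 13.33, 13.46 and 13.63 in the vehicle lungs. All treated values lay below all vehicle values, with B28 the nearest (log2 change -1.21 ± 0.18, limma adjusted p = 0.000784). Actg2 fell 3.48-fold, the smooth muscle myosin Myh11 2.85-fold, the actin-bundling Synpo2 4.06-fold and the matrix protein Tgfbi 2.14-fold. Pdgfra, the receptor that marks septal myofibroblast precursors and other fibroblasts, read 10.89, 10.40, 10.71 and 11.53 against 11.09, 11.13, 10.77 and 11.05, with overlap, B46 the highest of all 8 and B31 the lowest (log2 change -0.13 ± 0.21, limma adjusted p = 0.709). Among 13 pericyte genes 10 fell and 1 rose (median -0.84). Pdgfrb, the receptor pericytes need for recruitment, fell 2.54-fold, with vehicle values of 12.11 to 12.45 and treated values of 10.69 to 11.07. Cspg4, the pericyte proteoglycan also called NG2, fell 3.02-fold, and the guanylate cyclase subunit Gucy1a1 2.07-fold. The potassium channel Kcnj8 was the member that rose (1.61-fold, limma adjusted p = 0.00258).

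Basement membrane genes changed in part. Of 19, 8 fell (5 without B12 or B22) and 1 rose (2 without B22 or B46), with a median of -0.23. The share called was 47.4%, beside 27.4% of all genes. Lamb1 and Lamc1, laminin chains, fell 1.78-fold and 1.56-fold, and the linker proteins Nid1 and Nid2 1.8-fold and 2.56-fold. The exception was Col4a3, a collagen chain of the alveolar basement membrane, which rose 1.95-fold. Of 15 metalloproteinases and inhibitors 4 rose and 6 fell, a share called of 66.7%. Mmp14, a collagenase of the cell surface, fell 2.06-fold and Adamts5, which cleaves proteoglycans, 2.32-fold. The inhibitor Timp2 fell 1.85-fold, while its relative Timp4 read 7.53, 6.91, 7.39 and 7.44 in the treated and 4.89, 4.65, 4.60 and 5.29 in the vehicle lungs and rose 5.5-fold (limma adjusted p = 1.96e-05).

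Growth factors known from lung development moved in both directions. Igf1, the insulin-like growth factor that supports alveolar growth, read 10.35, 10.48, 9.87 and 8.16 in the treated and 11.98, 11.79, 11.69 and 11.95 in the vehicle lungs. All treated values lay below all vehicle values, with B46 far below the rest (log2 change -2.13 ± 0.43, limma adjusted p = 0.00464). All 4 probe sets of Igf1 were called lower. Igf2, the fetal growth factor, rose 1.55-fold, with 1 of its 2 probe sets called. Of the IGF-binding proteins, which hold these factors outside the cell, Igfbp2 fell 8.09-fold and Igfbp4 2.09-fold. Igfbp6 rose 6.58-fold and Igfbp3 6.08-fold. Mdk, midkine, a heparin-binding growth factor, read 8.49, 8.13, 7.58 and 6.87 against 11.31, 11.47, 11.34 and 11.58 and fell 12.6-fold (limma adjusted p = 2.87e-05). Dlk1, an imprinted gene of immature cells, fell 4.63-fold, and the imprinted adaptor Grb10, which restrains insulin receptor signals, 1.9-fold. In the whole list of 22, 3 rose and 9 fell (median -0.42).

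Morphogen pathways differed in the share called. It was 46.2% of the Wnt, 44% of the TGF-beta and BMP and 40% of the hedgehog genes, beside 27.4% of all genes. The shares among FGF (23.5%) and Notch genes (27.8%) lay near that of all genes. In the hedgehog pathway, which passes from epithelium to mesenchyme, 6 of 15 genes fell and 0 rose (1 without B46). The transcription factor Gli2 read 8.01, 7.87, 7.81 and 6.82 in the treated and 9.13, 9.15, 8.95 and 9.28 in the vehicle lungs (log2 change -1.50 ± 0.23, limma adjusted p = 0.00112). Gli3 fell 2.46-fold, Gli1 1.48-fold, the inhibitor Sufu 1.64-fold and the hedgehog-binding Hhip, which is also on the myofibroblast list, 1.81-fold. In the Wnt pathway 4 of 26 genes rose (6 without B46) and 8 fell. Wnt5a read 8.001, 8.14, 7.86 and 6.22 against 9.86, 9.76, 9.71 and 10.12 and fell 4.94-fold, with 4 of 4 probe sets called, while Wnt7a rose 2.42-fold. The ligand Wnt11 fell 1.92-fold, the receptor Fzd4 1.7-fold and the secreted modulators Dkk3 and Wif1 2.06-fold and 1.8-fold. Of 25 TGF-beta and BMP genes 5 rose (3 without B12, B14, B19 or B40) and 6 fell. The ligands Tgfb2 and Tgfb3 fell 3.65-fold and 2.22-fold and Bmp5 1.89-fold, while the receptor Bmpr1b rose 2.29-fold. Of 17 FGF pathway genes 4 fell (2 without B19 or B22), led by the receptor Fgfr1 (2.3-fold, limma adjusted p = 4.06e-05), and 0 rose (1 without B46). Of 18 Notch genes 5 fell (3 without B14, B19 or B22) and 0 rose, with Notch1 at 1.6-fold and the pericyte receptor Notch3 at 1.88-fold lower.

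Genes of axon guidance, many of which also act in vessels, fell in larger number than they rose. Of 27 semaphorins, slits, netrins, ephrins and their receptors 3 rose and 15 fell (median -0.39). The netrin receptor Unc5b fell 2.35-fold, the semaphorin receptor Plxnd1, which endothelium also carries, 2.25-fold, and Sema6a 2.03-fold. Epha3, an ephrin receptor, rose 1.84-fold. Dcx, a microtubule protein best known in young neurons, read 5.04, 4.33, 4.79 and 4.10 in the treated and 8.36, 8.17, 8.52 and 8.47 in the vehicle lungs and fell 14.1-fold. The call was shared by 2 of its 4 probe sets. S100b, a calcium-binding protein of glia and Schwann cells, fell 2.83-fold. Other large falls were in Prss35, a trypsin-like protein (11.2-fold), Plcxd3 (10.7-fold), Shisa3 (9.31-fold) and Cpxm1 (9.1-fold). Shisa3 read 4.83, 4.34, 4.56 and 4.44 against 7.78, 8.04, 7.60 and 7.64, a gap of 2.77 between the groups.

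The endothelium changed in part. The list of 24 endothelial genes had a median of -0.33, with 9 lower and 1 higher (2 without B28). The share called was 41.7%, beside 27.4% of all genes. Aplnr, the apelin receptor of capillary endothelium, read 10.97, 11.22, 10.66 and 9.39 in the treated and 12.97, 13.09, 12.94 and 13.05 in the vehicle lungs, and fell 5.47-fold with B46 lowest (4.18-fold without it, limma adjusted p = 1.03e-05). Kdr, the main VEGF receptor of growing vessels, read 10.41, 10.63, 10.41 and 9.81 against 11.20, 11.48, 11.03 and 11.23, without overlap (log2 change -0.92 ± 0.17, limma adjusted p = 0.00328). The surface protein Emcn fell 2.08-fold, the angiopoietin receptor Tek 1.36-fold, its relative Tie1 1.94-fold, the junction protein Cdh5 1.46-fold and the arterial factor Sox17 1.51-fold. Pecam1, which all endothelium carries, had -0.33 ± 0.16 with overlap (limma adjusted p = 0.176). The member that rose was Car4, a carbonic anhydrase of the alveolar capillary (1.38-fold, limma adjusted p = 0.00784). Of the VEGF ligands, Vegfd fell 2.11-fold, and Vegfa, made by alveolar type 1 cells, had 0.30 ± 0.11 (limma adjusted p = 0.0615; 0.0288 without B46, where it was called). Of 7 lymphatic genes 3 rose (2 without B12, B14, B19, B40 or B46), a share called of 42.9%. Reln read 9.71, 9.72, 9.71 and 10.60 against 7.66, 7.22, 7.43 and 7.60 and rose 5.49-fold, and Mmrn1 3.69-fold. Pdpn, which type 1 cells also carry, was at 0.39 ± 0.12 (limma adjusted p = 0.0357) and lost its call without B12, B14, B19, B40 or B46 (limma adjusted p 0.0596 to 0.101).

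More genes of the alveolar epithelium rose than fell. Of 16 type 2 cell genes 8 rose and 1 fell (median 0.37), and of 17 type 1 cell genes 10 rose and 2 fell (median 0.39). The type 2 gene that fell was Dlk1, given above among the imprinted genes, with groups 1.48 apart. Sftpd, a collectin of surfactant, read 14.07, 14.04, 14.21 and 14.31 in the treated and 13.15, 12.998, 13.004 and 13.39 in the vehicle lungs. Every treated value exceeded every vehicle value (log2 change 1.02 ± 0.12, limma adjusted p = 0.00019). Sftpa1 and Sftpb, a collectin and a protein needed for the surface film, rose 1.62-fold and 1.6-fold. Sftpc had 0.04 ± 0.08 (limma adjusted p = 0.736) at levels of 14.57 to 14.74, near the highest signals of the lung arrays (14.8). Ctsh, a protease that helps process surfactant proteins, read 13.78, 13.56, 13.82 and 13.81 against 12.14, 12.05, 12.07 and 12.24 and rose 3.07-fold (limma adjusted p = 6.69e-06).

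Among type 1 genes, the water channel Aqp5 read 12.26, 12.20, 12.59 and 12.02 in the treated and 10.97, 11.12, 10.99 and 11.42 in the vehicle lungs and rose 2.21-fold (limma adjusted p = 0.000353). Hopx, a homeobox protein of type 1 cells, rose 1.7-fold, Rtkn2 1.99-fold, Gprc5a 1.78-fold, Clic5 1.5-fold and the receptor Ager 1.3-fold. Igfbp2, which marks mature type 1 cells in older lungs, was against this direction, at 8.44, 8.15, 7.76 and 7.27 in the treated and 10.76, 10.91, 11.17 and 10.83 in the vehicle lungs (log2 change -3.02 ± 0.22, limma adjusted p = 1.90e-05). The other type 1 gene that fell was Sema3e (1.56-fold).

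Fluid transport genes rose: 11 of 13 passed the test upward, beside 13.6% of all genes, and 0 fell, with a median of 1.14. Scnn1a, the pore subunit of the sodium channel that draws fluid out of the airspace, read 10.85, 10.96, 11.13 and 11.62 in the treated and 9.36, 9.40, 9.34 and 9.63 in the vehicle lungs. The groups stood 1.21 apart (log2 change 1.70 ± 0.16, limma adjusted p = 7.11e-05). Its partner Scnn1g rose 2.12-fold, the sodium pump subunit Atp1b1 2.36-fold and the chloride channel Cftr 2.26-fold. Nedd4l, the ligase that removes the sodium channel from the membrane, rose as well (2.06-fold). The potassium channel Kcnj15 rose 5.34-fold, with treated values of 9.80 to 10.53 and vehicle values of 7.35 to 8.29. The water channel Aqp1, which is mainly endothelial in lung, and the exchanger Slc9a3 were not called, at -0.30 ± 0.12 and 0.09 ± 0.12 (limma adjusted p = 0.0869 and 0.595).

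**Figure D3:**
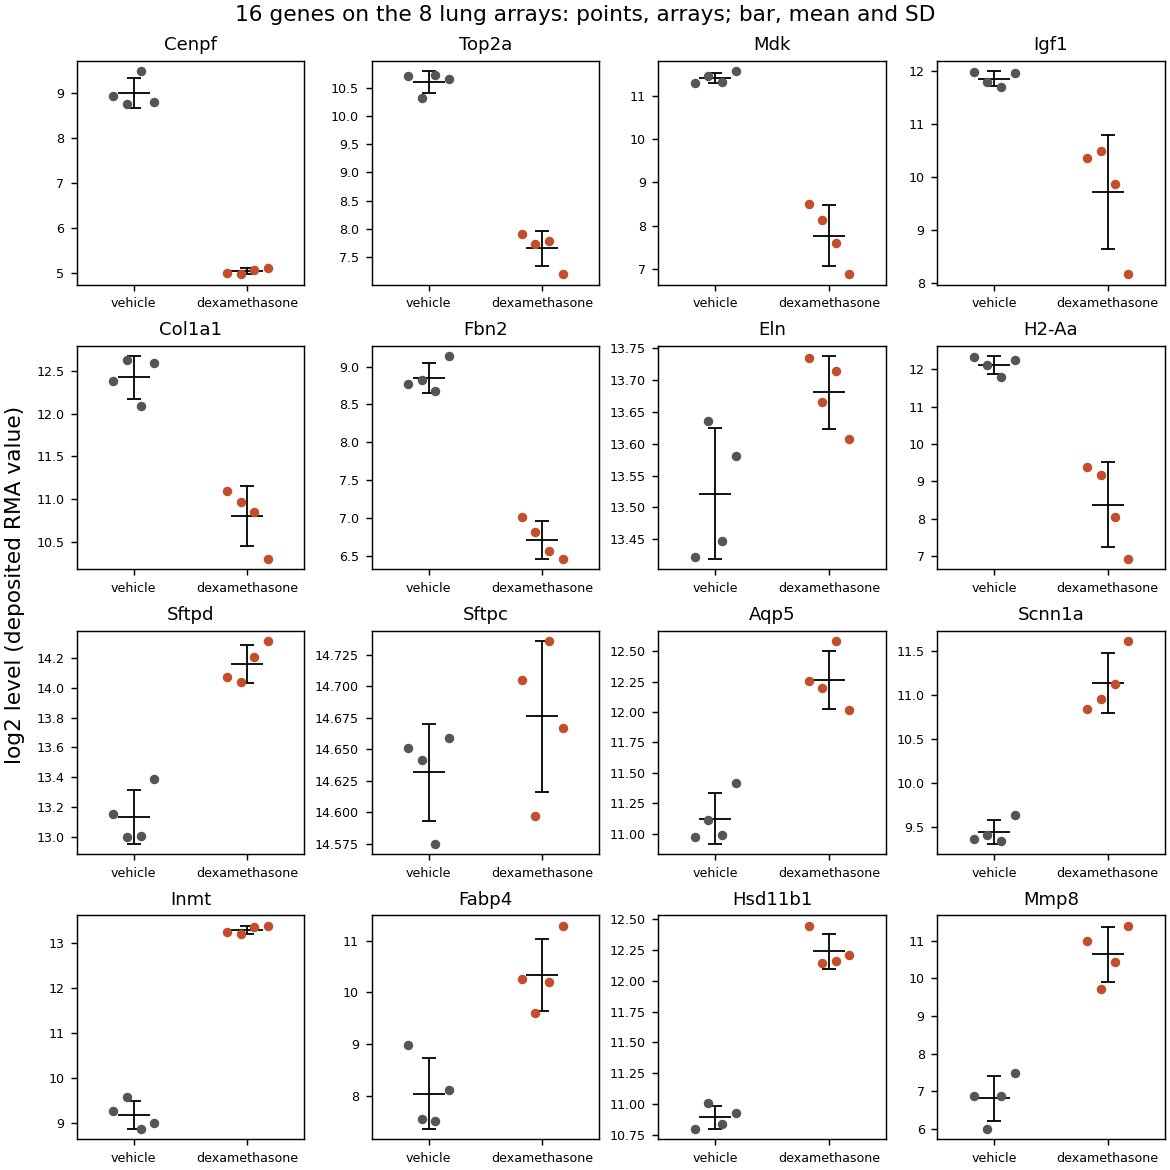
Log2 level of 16 genes on each of the 8 lung arrays, with 4 dexamethasone arrays and 4 vehicle arrays per panel. Points are arrays, and bars are the group mean with its SD. Division, matrix and growth genes lie lower, and epithelial, lipid and glucocorticoid genes higher, in the treated lungs without overlap, while Eln and Sftpc overlap.

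Airway genes rose where they were called. Of 15 secretory cell genes 6 rose and 0 fell, and of 17 ciliated cell genes 10 rose and 0 fell. The shares called were 40% and 58.8%, beside 27.4% of all genes. Bpifa1, an antimicrobial protein of the upper airway lining, read 9.83, 9.31, 10.27 and 9.78 in the treated and 6.50, 4.68, 5.06 and 5.96 in the vehicle lungs. The vehicle lungs spanned 1.82, and all lay below the treated ones (a 19.02-fold rise, limma adjusted p = 4.24e-05). The secretoglobin Scgb3a1 read 13.43, 12.67, 13.45 and 13.64 against 12.40, 9.57, 9.37 and 11.78, rising 5.73-fold over vehicle values that spanned 3.04. Cyp2f2, a P450 of club cells, rose 1.85-fold, and the carbonyl reductase Cbr2 1.61-fold. Scgb1a1 had 0.16 ± 0.09 (limma adjusted p = 0.226), at levels of 14.26 to 14.58. Among ciliated genes Enkur, Pifo and Dynlrb2 rose 2.12-fold, 1.92-fold and 1.9-fold. Of 8 mesothelial genes 6 rose and 0 fell, with mesothelin, Msln, 2.77-fold and the keratin Krt19 2.71-fold higher. Sprr1a, a cornified envelope protein of stressed epithelium, rose 9.83-fold.

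Enzymes that handle foreign compounds rose: 21 of 26 passed the test upward and 1 fell, with a median of 0.90. Inmt, a methyltransferase of lung fibroblasts that acts on indoles, read 13.26, 13.20, 13.36 and 13.39 in the treated and 9.26, 9.57, 8.87 and 9.01 in the vehicle lungs. The treated values spanned 0.19, and the gap between groups was 3.63 (fold 17.5, log2 change 4.13 ± 0.15, limma adjusted p = 1.01e-06). The sulfotransferase Sult1d1 rose 7.05-fold, the aldehyde oxidase Aox3 4.71-fold, the P450 enzymes Cyp2b10 and Cyp4b1 5.65-fold and 2.81-fold, and the glutathione transferase Gsta3 2.87-fold. The exception was Cyp1a1, the P450 of the dioxin response, which read 5.33, 4.998, 4.94 and 5.61 against 6.11, 6.30, 6.86 and 6.36 (log2 change -1.19 ± 0.19, limma adjusted p = 0.00135). Of 16 antioxidant genes 10 rose and 0 fell. Gpx3, a secreted glutathione peroxidase, rose 5.68-fold, the airway peroxidase Gpx2 2.61-fold and the reductase Gsr 2.22-fold.

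Lipid and glucose genes rose in smaller numbers. Among 14 lipofibroblast genes 6 rose (4 without B12, B14, B19, B22 or B40) and 2 fell (1 without B12, B14 or B22). The list's median was 0.14 and 57.1% were called. The genes named next all rose and do not stand for the list as a whole. The lipid carrier Fabp4 read 10.26, 9.61, 10.20 and 11.29 in the treated and 8.97, 7.55, 7.51 and 8.12 in the vehicle lungs and rose 4.93-fold. The lipase Lpl rose 2.38-fold and the fatty acid receptor Cd36, which is also on the type 2 list, 1.67-fold. Of 21 genes of cholesterol and fatty acid synthesis 6 rose and 1 fell, and without B46, 12 rose and 1 fell. Without B12 or B14, 4 rose, and without B40, 2 fell. The share called, 33.3%, lay little above the 27.4% of all genes. Msmo1 and Fdps of the sterol pathway rose 1.98-fold and 1.89-fold. Of 16 genes of glycolysis and glucose uptake 7 rose and 0 fell, a share called of 43.8%. The glucose transporters Slc2a3 and Slc2a1 rose 2.53-fold and 2.38-fold and the hexokinase Hk2 2.68-fold. None of 19 oxidative phosphorylation subunits was called (1 higher without B46, 1 lower without B19), with a median of 0.10 (Cox4i1 0.06 ± 0.09), though 3 were higher and 1 lower at an unadjusted limma p under 0.05. None of 12 cytosolic ribosomal proteins was called, and 0 passed unadjusted, with a median of -0.02 (Rplp0 0.02 ± 0.09).

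Genes known to be induced by glucocorticoid in many tissues rose in lung as well. Of 25, 18 rose and 0 fell, with a median of 1.10 (0.91 without B46). The rises numbered 12 without B12, 13 without B14, 14 without B22, 15 without B19 or B40, 16 without B28 and 19 without B31. Fkbp5, a cochaperone that dampens the receptor, read 9.93, 9.69, 10.07 and 11.52 in the treated and 8.07, 7.72, 7.85 and 8.24 in the vehicle lungs. All treated values lay above all vehicle values, and B46 stood out at the top (log2 change 2.33 ± 0.34, limma adjusted p = 0.000851). The same array was the highest treated one for Zbtb16, a zinc finger factor, at 9.16, 8.68, 9.17 and 11.60 against 7.41, 6.79, 7.41 and 7.38. Zbtb16 rose 5.29-fold, and 3.37-fold without B46. Pdk4, the kinase that spares glucose by blocking pyruvate oxidation, read 8.34, 8.61, 9.21 and 11.79 against 6.96, 6.22, 6.87 and 6.23 and rose 7.54-fold, and 4.43-fold without B46. Tsc22d3, the leucine zipper gene called GILZ, read 10.07, 9.83, 10.04 and 11.67 against 9.78, 9.63, 9.76 and 9.57: the groups did not overlap, yet with B46 far above the rest it was not called (log2 change 0.72 ± 0.34, limma adjusted p = 0.155). The kinase Sgk1 had 0.20 ± 0.15 (limma adjusted p = 0.354).

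Genes of this list with less spread were Errfi1, an inhibitor of the EGF receptor, which rose 2.39-fold, and Anxa1, annexin A1, which rose 1.92-fold. Fam107a rose 4.86-fold (2.71-fold without B46), and its call was lost when any vehicle array was left out (limma adjusted p 0.0605 to 0.0808). The receptor gene Nr3c1 read 10.95, 10.86, 10.78 and 10.52 in the treated and 11.17, 11.24, 11.10 and 11.20 in the vehicle lungs, a fall of 1.32-fold (limma adjusted p = 0.0203), lost without B14 or B22 (limma adjusted p = 0.058 and 0.0532) and with 2 of its 6 probe sets called. The mineralocorticoid receptor Nr3c2 had 0.14 ± 0.19 (limma adjusted p = 0.642). Hsd11b1, the enzyme that regenerates active glucocorticoid, read 12.45, 12.14, 12.16 and 12.21 against 10.80, 11.01, 10.84 and 10.93 and rose 2.54-fold. Hsd11b2, the enzyme that inactivates it, read 7.64, 7.66, 7.74 and 6.85 against 8.35, 8.78, 8.36 and 8.48 and fell 2.03-fold. Neither enzyme's groups overlapped (limma adjusted p = 2.16e-05 and 0.00373).

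Zinc, transcription factor, clock and immediate early genes were counted as well, and the shares called among clock (27.8%) and immediate early genes (31.2%) lay near the 27.4% of all genes. The metallothioneins Mt2 and Mt1, which bind zinc, rose 4.75-fold and 3.28-fold, and the zinc transporters Slc30a2 and Slc39a4 6.65-fold and 3.14-fold. In that list 5 of 11 rose and 0 fell. Of 14 C/EBP and Krüppel-like factors 6 rose and 1 fell, with Klf15 4.1-fold, Cebpd 3.47-fold, Klf9 2.26-fold and Cebpa 1.75-fold higher. Of 18 clock genes 4 rose and 1 fell. Nr1d1, the repressor also called Rev-erb alpha, read 8.56, 9.53, 9.36 and 8.71 in the treated and 6.79, 6.96, 6.63 and 6.70 in the vehicle lungs and rose 4.82-fold (limma adjusted p = 5.88e-05). The clock output factor Hlf fell 2.99-fold, and the early clock gene Per1 rose 2.4-fold over vehicle values from 7.38 to 8.58. The sources used here do not give the hour of collection. Of 16 immediate early genes 5 rose and 0 fell (1 without B40), with Maff 3.85-fold and Junb 2.27-fold higher.

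The neutrophil list had the highest median of the 60 lists. Of its 21 genes 20 rose and 0 fell, with a median of 2.09. Mmp8, the neutrophil collagenase, read 10.98, 9.72, 10.45 and 11.41 in the treated and 6.86, 5.996, 6.88 and 7.48 in the vehicle lungs. The groups stood 2.24 apart (fold 14.3, log2 change 3.84 ± 0.38, limma adjusted p = 8.43e-05). Cd177, a surface protein of neutrophils, rose 12.8-fold, the decoy interleukin receptor Il1r2 11.4-fold and the lectin receptor Clec4e 12.1-fold. Among granule and cytosolic proteins, S100a9 rose 3.29-fold, S100a8 2.57-fold, Ngp 5.91-fold and Ltf, which airway glands also make, 6.78-fold. Ctsg, a granule protease of neutrophil precursors, was not called (0.43 ± 0.16, limma adjusted p = 0.0739), except without B31 (limma adjusted p = 0.0254). Other genes among the largest rises were Olfm4 (12.3-fold), Asprv1 (9.94-fold), Wfdc21 (10.5-fold), Slfn4 (9.1-fold) and Ifitm6 (11.5-fold). The mean level of the neutrophil list was 9.11 to 9.93 in the treated and 7.26 to 7.83 in the vehicle lungs, lowest among the treated in B31. Whether more neutrophils or more RNA in each gave these levels cannot be told apart.

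More macrophage genes rose than fell. Of 17 alveolar macrophage genes 11 rose and 1 fell (median 0.86). Chil3, a chitinase-like protein of alveolar macrophages, read 13.10, 12.89, 13.14 and 13.40 in the treated and 8.81, 7.83, 8.67 and 8.53 in the vehicle lungs, a gap of 4.08 (fold 25.5, log2 change 4.67 ± 0.20, limma adjusted p = 1.16e-06). The scavenger receptor Marco rose 9.12-fold, Plet1 2.54-fold and the GM-CSF receptor subunits Csf2rb and Csf2ra 3.95-fold and 1.82-fold. The integrin Itgax, which alveolar macrophages and dendritic cells carry, fell 2.72-fold. Among 18 genes of monocytes and other macrophages 8 rose and 2 fell (1 without any array except B28 or B46). F13a1, a transglutaminase of monocytes and tissue macrophages, rose 6.67-fold, the lipopolysaccharide receptor Cd14 3.92-fold, the adaptor Tyrobp 2.29-fold, and Aif1 fell 1.69-fold. Ms4a4d, a membrane protein of the same family as the B cell antigen Ms4a1, rose 14.6-fold.

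Chemokines and acute phase genes rose, and they set the treated lungs apart from each other. Of 32 chemokines and cytokines 16 rose (11 without B19 or B40, 21 without B31) and 1 fell (median 0.97, 0.68 without B46). Of 19 acute phase and complement genes 9 rose (6 without B12, B19 or B22) and 0 fell (median 0.89). Cxcl2, which attracts neutrophils, read 7.85, 5.66, 10.69 and 11.54 in the treated and 4.13, 4.06, 4.55 and 4.29 in the vehicle lungs. All 4 treated lungs exceeded the vehicle lungs, with B31 the nearest to them and B46 the farthest (log2 change 4.68 ± 1.05, limma adjusted p = 0.00864). The fold of 25.6 became 54.6 without B31, 17.1 without B40 and 14.03 without B46. Ccl3, a chemokine of macrophages, read 7.57, 4.96, 8.99 and 11.53 against 4.58, 4.96, 4.67 and 4.81, with B31 level with the highest vehicle array. It was called (limma adjusted p = 0.0352), with a fold of 11.4 that became 24.4 without B31 and 5.35 without B46, and the call was lost without B28, B40, B12, B14, B19 or B22 (limma adjusted p 0.0528 to 0.0838).

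Other inflammatory genes shared this order. Orm1, an acute phase protein, read 7.12, 4.91, 7.49 and 10.26 in the treated and 4.47, 4.48, 4.45 and 4.72 in the vehicle lungs (fold 7.55, 13.6 without B31 and 3.94 without B46). Its call (limma adjusted p = 0.0304) was lost without B28, B40, B12, B14, B19 or B22 (limma adjusted p 0.0529 to 0.0691). The neutrophil chemokines Cxcl3 and Cxcl5 read 4.89, 4.29, 8.05 and 9.98 and 4.48, 4.13, 7.96 and 8.96 in the treated lungs, with vehicle values of 3.87 to 4.29 and 3.99 to 4.16. Neither was called (limma adjusted p = 0.0762 and 0.1), and both were without B28 (limma adjusted p = 0.044 and 0.0472) or B31 (0.0196 and 0.0266). Saa3, an acute phase protein, read 10.88, 8.79, 12.35 and 14.29 against 9.63, 8.13, 8.001 and 9.98 and was not called (limma adjusted p = 0.0762; 0.00875 without B31). In each of these genes B46 was highest and B31 lowest among the treated lungs.

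Some inflammatory genes rose in all 4 treated lungs with less spread. Il1b, interleukin 1 beta, read 9.61, 9.02, 10.40 and 9.09 in the treated and 6.60, 6.89, 7.22 and 7.12 in the vehicle lungs and rose 5.96-fold (limma adjusted p = 0.000153), with B40 and not B46 at the top. Its antagonist Il1rn rose 4.68-fold, the chemokines Ccl9 and Cxcl16 4.57-fold and 2.35-fold, and the haptoglobin gene Hp 3.2-fold. Serpina3n, an acute phase protease inhibitor, read 9.24, 8.32, 8.96 and 12.05 against 5.27, 5.32, 5.46 and 5.35 and rose 19.6-fold (11.2-fold without B46). The ferritin receptor Scara5 rose 8.83-fold (5.77-fold without B46), and the matrix protein Smoc2 10.9-fold.

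Array B46 held most of the widest spread. In all, 97 genes had an SD above 1 among the 4 treated lungs and 15 among the vehicle lungs. For 85 of the 97, B46 was the array farthest from the group median; it was the highest treated array for 62, and B31 was the lowest for 50. With B46 left out 18 genes had an SD above 1 among the remaining treated lungs, with B28 left out 158 and with B40 left out 164. Several stood apart from vehicle in B46 more than in the other treated lungs. Ch25h, which makes a hydroxylated cholesterol in activated macrophages, read 5.25, 5.04, 5.89 and 9.22 in the treated and 5.02, 4.68, 5.01 and 4.82 in the vehicle lungs. Arg1, the arginase of alternatively activated macrophages, read 6.61, 6.34, 6.58 and 10.35 against 6.79, 6.72, 6.68 and 7.16, and Galnt15 6.27, 5.98, 6.50 and 9.80 against 5.53, 6.37, 5.50 and 6.12. The amino acid transporter Slc7a10 went the other way, at 8.24, 8.40, 8.25 and 4.96 against 8.33, 8.50, 8.13 and 8.30. None of these 4 was called (limma adjusted p from 0.192 for Ch25h to 0.59 for Arg1). Hemgn, a nuclear protein of erythroid precursors, spread differently, at 6.10, 7.83, 8.33 and 4.25 in the treated and 4.38 to 5.70 in the vehicle lungs, with B46 lowest of the treated (limma adjusted p = 0.111; 0.00407 without B46). Among the vehicle lungs the 10 widest spreads were in Xist and 3 genes of the Y chromosome, in the airway genes Scgb3a1, Reg3g and Bpifb1, and in Car3, Mbp and Plppr4. Car3 and Plppr4 were called without B14 (limma adjusted p = 0.0123 and 0.00522) and not with it (0.106 and 0.491). Reg3g and Bpifb1 read 8.997, 5.54, 6.34 and 8.16 and 8.99, 7.08, 6.45 and 8.88 in the vehicle lungs, highest in B12 and B22 as for Scgb3a1.

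**Figure D4:**
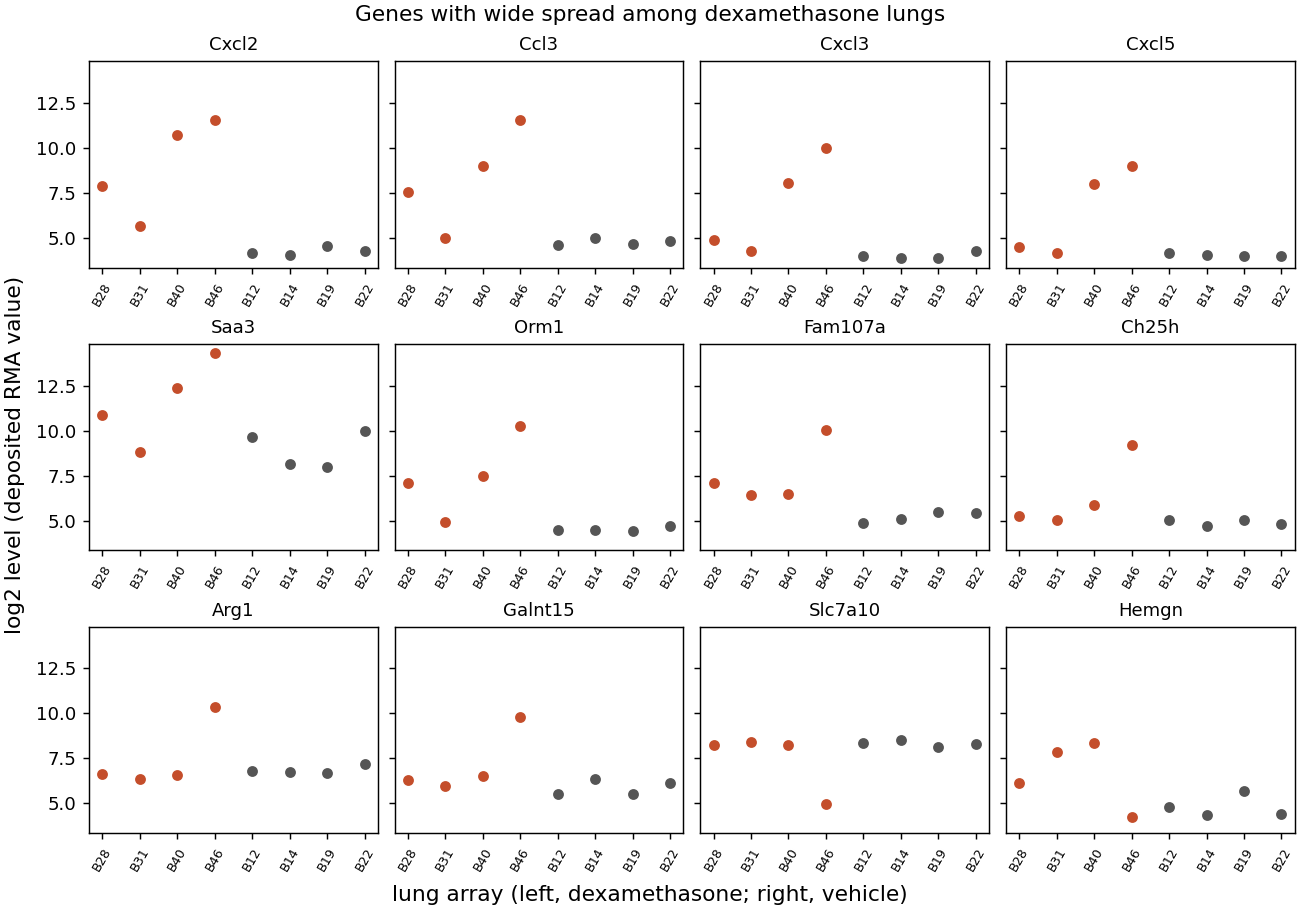
Log2 level on each of the 4 dexamethasone and 4 vehicle lungs of 12 genes among those with the widest spread in the treated lungs. Each panel is a gene, and each point an array. The inflammatory genes Cxcl2, Ccl3, Cxcl3, Cxcl5, Saa3 and Orm1 are highest in B46 and lowest in B31 among the treated lungs, and Ch25h, Arg1 and Galnt15 stand out in B46.

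Class II genes, whose products present antigen to T cells, fell. Of 10 class II genes 8 fell and 0 rose, with a median of -1.11. H2-Aa, a chain of the class II molecule, read 9.38, 9.17, 8.05 and 6.92 in the treated and 12.32, 12.12, 11.79 and 12.23 in the vehicle lungs. Treated values spanned 2.45, with B28 highest and B46 lowest, and all lay below the vehicle values (fold 13.3, limma adjusted p = 0.000283). H2-Ab1 read 6.95, 6.73, 6.92 and 6.49 against 10.11, 10.03, 9.91 and 10.36 and H2-Eb1 6.93, 7.30, 6.82 and 6.01 against 10.05, 10.28, 9.92 and 10.35, falls of 10.1-fold and 10.4-fold. The invariant chain Cd74 fell 4.92-fold and H2-DMa, which loads peptides, 2.75-fold. The 250-base windows of 3 of the 7 class II genes with a RefSeq entry (42.9%) hold the letters CTGATTGG, a form of the Y box of class II promoters, on either strand, beside 5.57% of all genes with a window, 5.04% of the higher and 7.80% of the lower genes. It was also present for 5 of the 23 mitotic genes (21.7%) and 16.7% of the DNA replication windows. The glucocorticoid-induced list, whose called genes rose, had it in 14.3% of its windows. The last 5 letters of CTGATTGG are the reverse complement of CCAAT, so matches of these 2 elements overlap. The windows of H2-Aa and H2-Eb1 are shown as examples of chains that fell and hold the element, with this element alone in capitals, in RefSeq build GRCm38.p6.
H2-Aa, chr17:34287824-34288073, minus strand: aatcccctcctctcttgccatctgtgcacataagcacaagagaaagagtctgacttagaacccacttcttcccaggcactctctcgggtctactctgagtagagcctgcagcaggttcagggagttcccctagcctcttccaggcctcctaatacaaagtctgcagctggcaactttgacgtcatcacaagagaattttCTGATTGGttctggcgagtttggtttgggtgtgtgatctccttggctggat
H2-Eb1, chr17:34305617-34305866, plus strand: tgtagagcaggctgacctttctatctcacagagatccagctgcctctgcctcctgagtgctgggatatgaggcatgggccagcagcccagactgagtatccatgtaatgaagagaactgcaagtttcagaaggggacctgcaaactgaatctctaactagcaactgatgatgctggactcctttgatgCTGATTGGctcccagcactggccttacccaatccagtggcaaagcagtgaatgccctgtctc

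T cell, B cell and dendritic genes fell where they were called. The share called was 15.4% of the T cell, 20% of the dendritic and 36.4% of the B cell genes, beside 27.4% of all genes. These lists are dim, with array means of 5.10 to 5.64 for the T cell list. By level, 20.2% of the genes with a lung mean of 5 to 6 were called, and 35.5% of those from 6 to 7. Of 11 B cell genes 4 fell and 0 rose, with Ms4a1, the antigen CD20, at 6.01, 6.40, 5.52 and 4.90 in the treated and 8.27, 8.40, 8.26 and 7.74 in the vehicle lungs (fold 5.5, limma adjusted p = 0.00022) and the factor Ebf1 3.27-fold lower. Of 13 T cell genes 2 fell and 0 rose: Cd3d and Cd3g of the receptor complex fell 3.81-fold and 2.02-fold. Of 10 dendritic cell genes 2 fell and 0 rose: the integrin Itgae, which T cells also carry, and the homing receptor Ccr7, 2.11-fold and 2.08-fold. The mean level of the B cell list was 5.56 to 5.96 in the treated and 6.32 to 6.51 in the vehicle lungs, that of the dendritic list 5.70 to 5.99 and 6.06 to 6.25. The part of these cells in the fall of class II genes was not tested. Of 18 interferon response genes 7 rose (4 without B12) and 1 fell (2 without B22, 3 without B31), a share called of 44.4%. Ifit3 and Ifit1 rose 2.62-fold and 2.68-fold, and the GTPase Iigp1 fell 2.87-fold. Kit, the receptor of mast cells that lung capillary endothelium also carries, fell 2.2-fold.

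Markers of other tissues that a lung dissection can hold moved too. Of 12 cardiac muscle genes 8 rose and 0 fell (median 0.84). Tnnt2, the cardiac troponin T, read 11.06, 10.39, 10.27 and 10.28 in the treated and 8.59, 8.56, 8.31 and 8.57 in the vehicle lungs and rose 3.98-fold, and the atrial light chain Myl7 2.11-fold. The mean level of this list was 8.29 to 8.91 in the treated and 7.61 to 7.85 in the vehicle lungs; in mice, cardiac muscle surrounds the pulmonary veins, so these genes are not foreign to lung. Of 8 erythroid genes 4 rose (6 without B46) and 0 fell, a share called of 50%, beside 27.4% of all genes. Klf1 rose 2.34-fold and Alas2 1.75-fold. None of 7 cartilage genes (1 lower without B14, 1 higher without B46) and none of 5 adipocyte genes (1 higher without B46) was called by limma, 0 also at an unadjusted p under 0.05, and 1 of 8 skeletal muscle genes rose (Ckm, 2.0-fold). The part of these tissues in the changes of other genes was not tested.

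The remaining lists differed in the share called, beside 27.4% of all genes. The share was 62.5% of the nerve and neuroendocrine, 46.7% of the VEGF and angiopoietin and 46.2% of the amino acid stress genes. It was 45.5% of the glucocorticoid receptor and metabolism genes and 38.9% of the retinoic acid genes. The mast cell and NK cell shares, 20% and 11.1%, lay below that of all genes. Of 18 stress chaperones 5 rose and 0 fell (27.8% called, beside 27.4% of all genes): the heat shock proteins Hspa1b and Hspb1 rose 2.36-fold and 2.14-fold. Of 13 genes of the amino acid stress response 5 rose and 1 fell (0 without any array except B19 or B40), with the asparagine synthetase Asns 1.91-fold and the kinase-like Trib3 1.73-fold higher. Of 18 retinoic acid genes 5 rose and 2 fell, and 2 rose without B12, B22, B28 or B31, and 3 without B14, B19 or B40. The falls numbered 0 without B14 and 1 without B19, B22 or B40. Aldh1a1, an enzyme that makes retinoic acid, read 12.67, 12.74, 12.76 and 12.81 in the treated and 12.14, 11.85, 11.75 and 12.000 in the vehicle lungs and rose 1.75-fold (limma adjusted p = 0.000385). Of 8 nerve and neuroendocrine genes 1 rose and 4 fell, Stmn2 by 1.54-fold. Of 9 NK cell genes 1 rose (2 without B46), the protease Gzmb (1.74-fold). Of 10 mast cell and basophil genes 1 rose (0 without B14, B19 or B40, 2 without B46) and 1 fell (2 without B31). Of 15 VEGF and angiopoietin genes 2 rose and 5 fell. The rises numbered 0 without B12 or B19, 3 without B46 and 1 without each of the other arrays. Of 11 genes of glucocorticoid receptors and metabolism 2 rose (1 without B12, B14, B22, B28 or B40, 3 without B46) and 3 fell (1 without B14 or B22).

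The lung response was set against that of the cerebellum by the difference of the 2 effects over all 16 arrays. The lung effect was above the cerebellar one for 1792 genes (9.85%) and below it for 2087 (11.5%), and 3070 genes (16.9%) were called both in lung and in this difference. In the fit of 16 arrays the cerebellar effect alone was called for 874 genes (4.80%). The lung effect alone was called in that fit for 2860 genes higher and 2819 lower. The largest differences above were Cxcl2, Chil3, Inmt, Bpifa1, Pdk4, Ccl3, Mmp8 and Cd177, and those below were Dcx, Aspm, Cenpf, Shisa3, H2-Ab1, Cep55, Cdca2 and Plcxd3. Inmt had a log2 change of 4.13 in lung and -0.17 in cerebellum, a difference of 4.29 ± 0.18 (limma adjusted p = 9.50e-10). Aspm had -3.41 and 0.23, a difference of -3.65 ± 0.33 (limma adjusted p = 2.58e-06). Pdk4 had 2.91 and -1.01, a difference of 3.92 ± 0.73 (limma adjusted p = 0.00109). Within the lists, the lung effect was below the cerebellar one for 25 of 27 mitotic genes, and above it for 20 of 21 neutrophil and 11 of 13 fluid transport genes. In cerebellum the median log2 change was -0.13 for the mitosis, -0.15 for the neutrophil and -0.07 for the fluid transport list. Many lung genes read near the floor in cerebellum, and whether they are transcribed enough to respond there was not tested. The fit of 16 arrays gives each gene a single variance, and the cerebellar arrays would lower the estimated spread of such genes. Their adjusted p-values in the difference may thus be too small, and how many calls this affects was not tested.

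**Figure D5:**
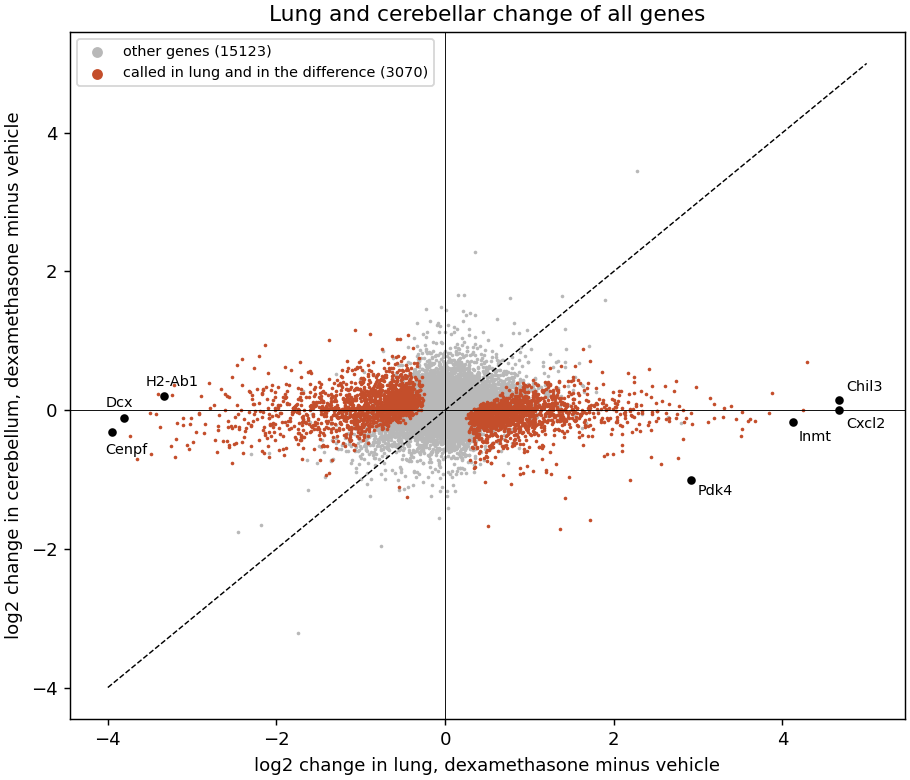
Log2 change with dexamethasone in lung (horizontal) and in cerebellum (vertical) for each of the 18193 genes. Coloured genes were called in lung and in the difference between the tissues (3070), and the dashed line marks equal change. Called genes spread along the horizontal axis, with Inmt, Chil3 and Cxcl2 at the right and Cenpf and Dcx at the left near a cerebellar change of 0.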

How the data were processed

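Whole lung and whole cerebellum at postnatal day 7 were hybridised to Affymetrix mouse arrays, 4 for each tissue and treatment. The deposited values are log2 signals made with RMA (background correction, quantile normalization and summary over probes), per the submitters' processing notes. They were used as deposited, with all 16 columns mapped to samples by title. Control probe sets (64) and probe sets with several genes (932) or none (9160) were left out. Each of the remaining 18193 genes was read by the probe set brightest on average in all 16 arrays, with symbols updated through RefSeq for 18032 genes.

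Treatment was tested in the 8 lung arrays with lmFit and eBayes of limma 3.58.1 in R 4.3.3 (6 residual degrees of freedom), with Benjamini-Hochberg adjustment over all genes. The difference from cerebellum was fitted on 16 arrays, with a single variance per gene over both tissues. The number of arrays limits the precision, and p-values measure the spread between these arrays. The fits were tested on simulated data. Alternatives covered the probe set, dim genes (log2 under 6), normalization, variance, covariates, the threshold and each array left out. The 60 gene lists (976 genes measured) and the comparison were chosen with earlier results of these data known. Named genes were the 20 largest rises and falls without overlap, up to 6 called per list with the lowest adjusted p, a set of well-known genes, the 15 and 10 with the widest spread among treated and vehicle lungs, and the 8 largest differences from cerebellum each way. A further 17 genes were named after their values were seen: Cdk1, Cdc20, Scgb1a1, Lox, P4ha1, Igfbp3, Cyp1a1, Cyp2b10, Car4, Ube2c, Nusap1, Ccne1, Ctsg, Aqp1, Slc9a3, Kcnj8 and E2f2.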

Additional observations from a re-analysis of the deposited data

Results flagged for a closer look

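In 55 of the 554 groups of 4 lung arrays looked at for the genes named here, 1 array stood so far from the nearest other that the gap passed Dixon's critical value. Chance flags about 1 in 20 groups that are independent and picked without regard to their values. Some genes here were named for their spread or their change, and all share the same arrays. The share flagged therefore cannot be held against that rate. The array was B46 in 28 of them and B19 in 10. All values are log2 levels. B46 lay above the other treated lungs for Arg1 (10.35), Cdkn1a (11.88), Galnt15 (9.80), Lpl (13.18), Marco (10.19), Nedd4l (10.74), Reln (10.60), Scara5 (10.45), Tsc22d3 (11.67) and Zbtb16 (11.60). It lay below the other treated lungs for Ager (14.17), Cbr2 (13.77), Cdca2 (4.66), Cdk1 (7.08), Cpxm1 (4.49), Cspg4 (6.98), E2f1 (6.19), Epha3 (9.32), Gli2 (6.82), Hsd11b2 (6.85), Ltbp2 (8.82), P4ha3 (4.86), Sema6a (6.63), Slc7a10 (4.96), Spc25 (5.31), Synpo2 (5.34), Tgfb3 (7.83) and Wnt5a (6.22). B28 lay above the other treated lungs for Ckm (7.38) and Tnnt2 (11.06). B31 lay above the other treated lungs for Mcm2 (8.50) and Unc5b (7.93). It lay below the other treated lungs for Ctsh (13.56). B40 lay above the other treated lungs for Gsta3 (8.89). It lay below the other treated lungs for Trib3 (6.77) and Xist (5.67). B12 lay above the other vehicle lungs for Plet1 (9.64). It lay below the other vehicle lungs for Cpxm1 (8.22). B14 lay above the other vehicle lungs for Plppr4 (6.45). It lay below the other vehicle lungs for Cdc6 (7.14) and Zbtb16 (6.79). B19 lay above the other vehicle lungs for F13a1 (8.91). It lay below the other vehicle lungs for Col1a2 (13.51), Klf15 (6.99), Lamb1 (12.00), Lamc1 (10.82), Nid2 (7.31), Pecam1 (9.45), Tnc (11.71), Tnnt2 (8.31) and Wif1 (8.16). B22 lay above the other vehicle lungs for Cdk4 (10.83), Orm1 (4.72), P4ha2 (7.74) and Wfdc21 (8.01).

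The change with dexamethasone differed between lung and cerebellum for the 16 genes with the largest such differences, with limma adjusted p up to 0.0282. Lung minus cerebellum, the log2 difference was Cxcl2 (4.68), Chil3 (4.53), Inmt (4.29), Bpifa1 (4.25), Pdk4 (3.92), Ccl3 (3.88), Mmp8 (3.87) and Cd177 (3.83), and on the other side Dcx (-3.70), Aspm (-3.65), Cenpf (-3.63), Shisa3 (-3.59), H2-Ab1 (-3.53), Cep55 (-3.46), Cdca2 (-3.45) and Plcxd3 (-3.36). The genes were chosen by this measure, so their p-values describe the choice. Whether each gene is transcribed enough in cerebellum to respond there was not tested.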

How the results depend on the processing

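The counts of genes higher and lower (2473 and 2508) stayed within 1.5 times of these values with probe sets averaged per gene, the probe set brightest in lung, the filter on dim genes, a second quantile or loess normalization, all 16 arrays, a variance trend, array weights, and the Xist or actin covariate, from 2194 to 2860 higher and from 2027 to 2819 lower. With the Gapdh covariate they were 9 and 23, and the called genes of the lists 16 in place of 480. At an adjusted p under 0.01 they were 1372 and 1528. Leaving out each lung array gave 1827 to 2626 higher, 1947 to 2451 lower and 413 to 512 of the listed genes. The 3879 genes whose effect differed from cerebellum became 3329 to 3859 with any of the 16 arrays left out. The 97 genes with an SD above 1 among the treated lungs became 18 to 164, lowest without B46. Of the 245 called genes named here, 225 were no longer called and 3 changed direction with the Gapdh covariate: Ccl3 (-0.22), Orm1 (-0.35) and Scgb3a1 (-0.13). In the other settings no called gene changed direction and at most 12 lost their call. No paired analysis was possible because the arrays carry no replicate number shared between groups. Simulated data had 4 arrays a group and 200 of 18193 genes changed. In them 2-fold changes were recovered at 80% to 90% and 1.5-fold changes at 19% to 23.5%. The lungs had 4981 called genes, and the adjusted threshold is less strict when more genes change. These rates are thus not those of the lung data, where small changes may still have been missed.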
